A study of Mus musculus with 3 samples.

Results

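Csf1, Il34, Csf1r, Csf2ra, Csf2rb and Csf3r, the colony-stimulating factors and receptors that act on myeloid cells, were followed in single cells of the mouse fetal brain. The 6 genes were chosen by symbol from 27998 measured genes. All 6 were present in the tables. The cells were CD11b+ cells of E18.5 brains, taken from a Percoll gradient and enriched with magnetic beads against CD11b, an integrin chain of myeloid cells. Droplet libraries read the 3' end of each polyadenylated transcript, and molecules were counted by unique molecular identifier (UMI).

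There were 3 libraries, 1 per group. The first was Gzmb-cko with poly(I:C), whose labelled genotype is Ncr1-cre;gzmbf/f. The second was Ncr1-cre with poly(I:C), and the third was Ncr1-cre with saline. All 3 groups carry Ncr1-cre, a Cre active in natural killer cells and other innate lymphoid cells that make NKp46. The Gzmb-cko group also carries the floxed allele of Gzmb, the gene of granzyme B, a killer-cell protease. Poly(I:C) mimics the double-stranded RNA of viruses. The sources used here do not give its dose or day, how many fetuses were pooled, or whose genotype, the dam's or the fetus's, the labels state. A Gzmb-cko library with saline was not analysed here. With 1 library per group no difference could be tested, and the libraries have no replicate check. Levels are given with 95% exact Poisson intervals, shares of cells with exact binomial intervals, and ratios with exact conditional binomial intervals. These cover counting error only, not the variation between animals. Both ratios below use the Ncr1-cre poly(I:C) library, above the line in one and below it in the other, so they are not independent.

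CSF1 and IL-34 are the ligands of the receptor tyrosine kinase CSF1R, on which microglia and many tissue macrophages depend for survival. In the brain, IL-34 is made mainly by neurons, and CSF1 by several cell types, microglia among them. Csf2ra encodes the ligand-binding chain of the receptor for GM-CSF, and Csf2rb encodes the common beta chain that also serves the receptors for IL-3 and IL-5. Csf3r encodes the receptor for G-CSF, which supports neutrophil production and is most familiar on maturing neutrophils.

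The libraries held 15306 barcodes (Gzmb-cko poly(I:C)), 14887 (Ncr1-cre poly(I:C)) and 13820 (Ncr1-cre saline), with 105574073, 85442198 and 89295907 UMIs. Keeping cells with 500 genes or more and no more than 10% mitochondrial UMIs left 13447, 10759 and 12148 cells in the same order of libraries. The shallowest barcode had 500 UMIs in both poly(I:C) libraries and 3133 UMIs in saline, so shallow cells could enter only the poly(I:C) libraries. Cells were sorted by 5 gates. Microglia carried P2ry12 and no Mrc1, and numbered 5226 (Gzmb-cko poly(I:C)), 4299 (Ncr1-cre poly(I:C)) and 5088 (saline). Cells with both Mrc1 and Pf4, the rule for border macrophages, numbered 1837, 673 and 1053. Monocytes, with Ccr2 and Ly6c2, numbered 316, 356 and 424. Neutrophils, with at least 20 UMIs each of S100a8 and S100a9, numbered 114, 424 and 298. Neurons, with Stmn2 and Dcx, numbered 114, 313 and 108, although the CD11b enrichment should remove them. Between 38.4% and 41.5% of the kept cells of a library met no gate, and those that met more than 1 gate (1.96% to 4.19%) were left out. Between 63 and 71 barcodes were shared by each pair of libraries. Gzmb had 2 UMIs in 1 barcode of Gzmb-cko poly(I:C), against 127 UMIs in 6 barcodes of Ncr1-cre poly(I:C) and 61 UMIs in 4 barcodes of the saline library, too few cells to check the genotype.

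A list of 8 microglia markers and a list of 8 border macrophage markers, neither used for gating, were summed in counts-per-million (CPM) of all UMIs of the gated cells. In the microglia gate the microglia list stood at 9153, 9284 and 6669 CPM (Gzmb-cko poly(I:C), Ncr1-cre poly(I:C), saline) and the border list at 252, 212 and 271 CPM. In the Mrc1 and Pf4 gate the microglia list reached 5740, 5659 and 4703 CPM, above the border list at 3082, 3516 and 2336 CPM. The name border macrophage therefore did not hold for the gate as a whole, and its cells are called Mrc1+ Pf4+ macrophages here. Most of them carried P2ry12 (1516 of 1837, 510 of 673 and 819 of 1053). In the remaining 321, 163 and 234 cells the border list stood at 5099, 4845 and 3351 CPM and the microglia list at 2418, 2512 and 2810 CPM. All 8 microglia markers were also detected in the monocyte, neutrophil and neuron gates. Their sum there was lowest in Ncr1-cre poly(I:C): 1251, 651 and 1413 CPM in monocytes, 1617, 845 and 1732 CPM in neutrophils, and 1664, 636 and 1917 CPM in neurons (Gzmb-cko poly(I:C), Ncr1-cre poly(I:C), saline). For these 3 gates the values of cells with under 10 UMIs of microglia markers are given as well for part of the results. Such cells numbered 279, 336 and 342 monocytes, 96, 398 and 215 neutrophils, and 101, 294 and 84 neurons.

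The 6 genes lie on separate chromosomes of GRCm38, and all 6 are annotated as protein coding. Csf1 (ENSMUSG00000014599) spans chr3:107741048-107760469 on the minus strand, Csf2ra (ENSMUSG00000059326) chr19:61223957-61228429 on the minus strand, and Csf3r (ENSMUSG00000028859) chr4:126024550-126044440 on the plus strand. Csf2rb (ENSMUSG00000071713) spans chr15:78325752-78353847 on the plus strand. Il34 (ENSMUSG00000031750) spans chr8:110741829-110805924 on the minus strand.

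Csf1r was left out of the promoter search. Among the remaining members, the promoter sequences of 3 were matched in RefSeq (GRCm38.p6). Csf1 is the ligand whose level differed between poly(I:C) libraries, while Csf2ra and Csf3r were both highest in monocytes and neutrophils. All 3 matched sequences are shown, without a choice by level. Each is the 250 bases before the RefSeq start, read 5′ to 3′ on the strand of the gene: Csf1 at chr3:107760470-107760719 on the minus strand, Csf2ra at chr19:61228419-61228668 on the minus strand and Csf3r at chr4:126024409-126024658 on the plus strand. Capitals mark GAGGAA, a core of the binding site of PU.1, and TTGCG, a partial site of the C/EBP factors, on either strand (TTCCTC and CGCAA as read on the other strand).
Csf1: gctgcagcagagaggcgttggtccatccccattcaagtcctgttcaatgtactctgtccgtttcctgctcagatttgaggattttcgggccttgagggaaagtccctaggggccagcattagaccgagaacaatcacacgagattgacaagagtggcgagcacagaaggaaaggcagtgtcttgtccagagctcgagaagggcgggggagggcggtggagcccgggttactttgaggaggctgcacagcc
Csf2ra: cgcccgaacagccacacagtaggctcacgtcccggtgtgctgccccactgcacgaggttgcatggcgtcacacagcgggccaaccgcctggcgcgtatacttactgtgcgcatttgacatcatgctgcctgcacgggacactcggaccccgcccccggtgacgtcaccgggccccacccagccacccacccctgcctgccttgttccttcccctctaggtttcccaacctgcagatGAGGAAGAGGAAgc
Csf3r: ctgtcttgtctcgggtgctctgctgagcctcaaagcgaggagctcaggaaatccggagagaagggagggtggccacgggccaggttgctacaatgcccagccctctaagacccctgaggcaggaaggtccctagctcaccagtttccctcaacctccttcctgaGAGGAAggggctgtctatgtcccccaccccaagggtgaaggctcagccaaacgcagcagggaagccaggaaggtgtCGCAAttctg
GAGGAA occurred in 23.25% of 32851 promoter windows of the same length and TTGCG in 14.52%. The Csf2ra window held 2 copies of GAGGAA side by side at its end near the start, and no TTGCG. The Csf3r window held 1 copy of GAGGAA and 1 TTGCG, the TTGCG on the opposite strand. The Csf1 window held neither motif. The motifs do not overlap each other, and a match is a description of the letters, not a binding site.

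Among the 5 gates, Csf1, the ligand, was highest in microglia. Cells in none of the gates held 83.1, 59.2 and 64.4 CPM of it, from 3111, 1560 and 1961 UMIs (Gzmb-cko poly(I:C), Ncr1-cre poly(I:C), saline). The level in microglia was 122 CPM (118 to 126; 4199 UMIs) in Gzmb-cko poly(I:C), 89.0 CPM (85.4 to 92.8; 2231 UMIs) in Ncr1-cre poly(I:C) and 89.1 CPM (85.7 to 92.5; 2627 UMIs) in saline. The Gzmb-cko library was thus above the other 2, whose intervals overlapped almost fully. The ratio of Gzmb-cko poly(I:C) over Ncr1-cre poly(I:C) was 1.37 (1.30 to 1.44), and that of Ncr1-cre poly(I:C) over saline was 0.9999 (0.945 to 1.06), or 0.898 when libraries were scaled by the trimmed mean of M-values (TMM). Neither ratio passed 1.5-fold, the size used here for calling a difference in either direction. At least 1 UMI of Csf1 was found in 24.7%, 21.2% and 21.3% of microglia (Gzmb-cko poly(I:C), Ncr1-cre poly(I:C), saline). When each cell was thinned to 2000 UMIs, which left out 168, 439 and 0 shallower cells, the shares were 11.9%, 11.01% and 10.8%. The thinned shares differed less than the levels did. In neurons with under 10 UMIs of microglia markers, at median depths of 4909, 4657 and 4244 UMIs against 5739.5, 5091 and 4726 UMIs in microglia, the share of cells with a Csf1 UMI was 1.98%, 1.02% and 1.19%.

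Csf1 counts were concentrated in few microglia. The 1% of microglia with the most Csf1 held 27.05%, 23.8% and 23.8% of all Csf1 UMIs of the class (Gzmb-cko poly(I:C), Ncr1-cre poly(I:C), saline), whereas the same share of cells chosen by Csf1r, which nearly every microglial cell carries, held 3.27%, 3.45% and 3.32% of the Csf1r UMIs. For members nearer to Csf1 in level, the shares were 8.29%, 9.01% and 8.66% (Csf2ra), 9.61%, 12.8% and 10.0% (Csf2rb) and 8.06%, 7.93% and 8.33% (Csf3r). Microglia with at least 5 Csf1 UMIs numbered 229 (4.38%), 130 (3.02%) and 142 (2.79%), and together they held 59.7%, 46.6% and 45.1% of the class's Csf1 UMIs. These cells differed from microglia with no Csf1 UMI in the same direction in all 3 libraries. Csf1r stood at 1135, 1303 and 1267 CPM in them, against 1674, 1686 and 1520 CPM in microglia with no Csf1 UMI. P2ry12, a receptor of homeostatic microglia and a gate gene that every compared cell carries, stood at 613, 951 and 577 CPM, against 1180, 1371 and 878 CPM. Median depths were 10468, 8182 and 7210 UMIs, against 5328, 4733.5 and 4510 UMIs. What the gate and depth add to the P2ry12 difference was not tested. Spp1, which encodes osteopontin, stood at 9735, 3052 and 2365 CPM, against 351, 144 and 354 CPM. Ccl3, a chemokine of activated microglia, stood at 1722, 1419 and 1413 CPM, against 368.5, 440.5 and 242 CPM.

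The cells richest in Csf1 were described by 4 states that were defined without Csf1. Chemokine-high microglia had at least 20 UMIs of Ccl3 plus Ccl4, and Spp1-high microglia at least 10 UMIs of Spp1. Cycling cells and interferon-response cells had UMIs of at least 2 of 6 genes of each kind (Mki67, Top2a, Cenpf, Birc5, Ube2c and Hmmr; Ifit1, Ifit2, Ifit3, Isg15, Rsad2 and Cxcl10). States are ranges of a count rather than cell types, and 390, 358 and 217 microglia lay just under the chemokine threshold with 10 to 19 UMIs, while 119, 45 and 89 had 5 to 9 UMIs of Spp1. In chemokine-high microglia Csf1 stood at 528 CPM in 282 cells (Gzmb-cko poly(I:C)), 343 CPM in 203 cells (Ncr1-cre poly(I:C)) and 512 CPM in 108 cells (saline). In Spp1-high microglia it stood at 471 CPM in 293 cells, 321 CPM in 92 cells and 321 CPM in 205 cells. Cells that were both chemokine-high and Spp1-high had the highest levels of the states compared, at 930, 605 and 860 CPM, but numbered only 53, 15 and 19. Cycling microglia had 113, 60.6 and 72.4 CPM, interferon-response microglia 112, 83.0 and 47.4 CPM, and microglia in none of the 4 states 67.5, 72.2 and 77.6 CPM. Median depths were 8762.5, 7250 and 6190.5 UMIs in chemokine-high cells, 10352, 10216.5 and 7881 UMIs in Spp1-high cells, and 5225, 4713 and 4292 UMIs in cells of none of the states.

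The share of microglia in these 2 Csf1-rich states was also larger in Gzmb-cko poly(I:C). Chemokine-high or Spp1-high cells made up 9.99% of its microglia, against 6.51% in Ncr1-cre poly(I:C) and 5.78% in saline. They held 56.35% of Csf1 UMIs in the Gzmb-cko library, against 35.0% in Ncr1-cre poly(I:C) and 31.1% in saline. In the microglia outside both states, Csf1 stood at 62.9, 64.3 and 66.8 CPM. The 3 libraries were close to each other there, and the ratio of Gzmb-cko poly(I:C) over Ncr1-cre poly(I:C) was 0.979 (0.913 to 1.05), against 1.37 over all microglia. The states were chosen with the Csf1 levels known, and depth and the lower limit of UMIs also differ between the libraries.

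**Figure D1:**
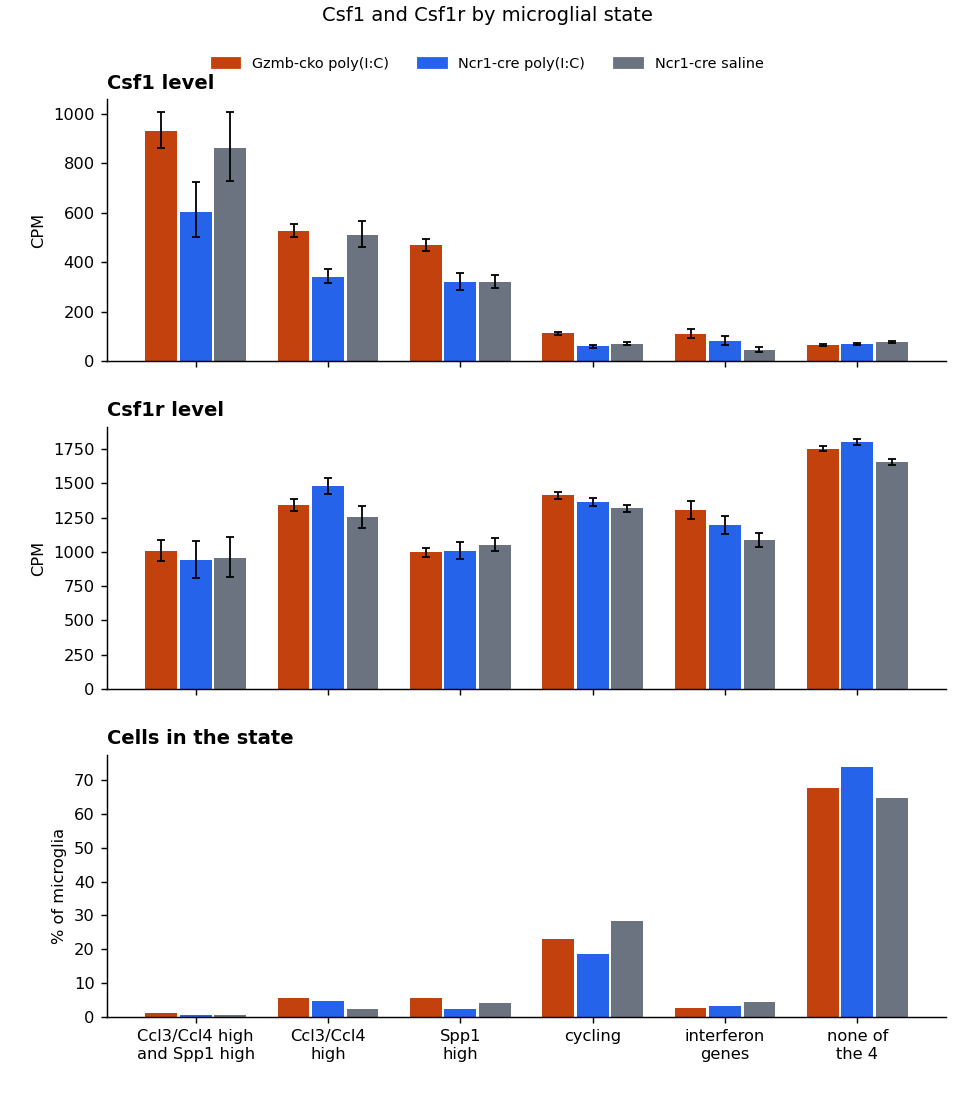
Csf1 level and Csf1r level in CPM (bars, with 95% exact Poisson intervals) and percent of microglia by state, for the libraries Gzmb-cko poly(I:C), Ncr1-cre poly(I:C) and Ncr1-cre saline, with 1 library per group. All chemokine-high cells and all Spp1-high cells sit between 321 and 528 CPM of Csf1. Cells that are both, drawn as a separate group, sit above that range in every library. Cells in none of the states sit between 67.5 and 77.6 CPM in every library, while Csf1r is lower in Spp1-high cells than in cells of none of the states.

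Mrc1+ Pf4+ macrophages carried less Csf1 than microglia in each library. The level was 74.8 CPM (71.0 to 78.8; 1433 UMIs) in Gzmb-cko poly(I:C), 38.8 CPM (33.8 to 44.2; 222 UMIs) in Ncr1-cre poly(I:C) and 59.45 CPM (54.4 to 64.8; 511 UMIs) in saline. The 3 intervals did not overlap, and the Ncr1-cre poly(I:C) library was the lowest. The ratio of Gzmb-cko poly(I:C) over Ncr1-cre poly(I:C) was 1.93 (1.67 to 2.23), and that of Ncr1-cre poly(I:C) over saline was 0.652 (0.555 to 0.765). In these cells 1 of 5 measured members, Csf1, was past 1.5-fold in the higher direction in the first comparison, where 0.728% of 6182 genes were (2.64% lower, 3.36% in either direction). In the second, 1 of 5, again Csf1, was past it in the lower direction, where 1.82% of 6165 genes were (8.0% higher, 9.81% in either direction). With P2ry12, the cells held 82.8, 46.2 and 63.65 CPM of Csf1. Without P2ry12 they held 18.7, 10.1 and 41.35 CPM, the highest in saline. The Ncr1-cre poly(I:C) value rests on fewer than 20 UMIs in 163 cells, and 3 of the 234 saline cells held 26.9% of the Csf1 UMIs there. Border markers exceeded microglia markers in the cells without P2ry12, but by the least in saline (3351 against 2810 CPM). Spp1-high cells made up 15.2% of Mrc1+ Pf4+ macrophages in Gzmb-cko poly(I:C), 9.21% in Ncr1-cre poly(I:C) and 16.6% in saline, with Csf1 at 165, 46.0 and 112 CPM. Outside the chemokine-high and Spp1-high states the levels were 33.8, 30.9 and 39.8 CPM, and the 2 ratios were 1.09 (0.904 to 1.33) and 0.777, which ended both calls.

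Csf1 was scarce in the other gates. In monocytes there were 51, 24 and 68 UMIs (22.2, 9.42 and 26.3 CPM in Gzmb-cko poly(I:C), Ncr1-cre poly(I:C) and saline). In neutrophils there were 4, 71 and 49 UMIs, and in neurons 23, 4 and 17 UMIs. In Gzmb-cko poly(I:C) and saline most of these were in cells with 10 or more UMIs of microglia markers. With under 10 UMIs of microglia markers, monocytes held 6, 13 and 27 Csf1 UMIs (3.37, 5.63 and 16.5 CPM), neutrophils 0, 23 and 4, and neurons 2, 3 and 1. The order of the libraries in monocytes was not the same with and without the marker-bearing cells: the ratio of Gzmb-cko poly(I:C) over Ncr1-cre poly(I:C) was 2.35 (1.42 to 3.999) over all and 0.598 (0.187 to 1.69) without them.

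**Figure D2:**
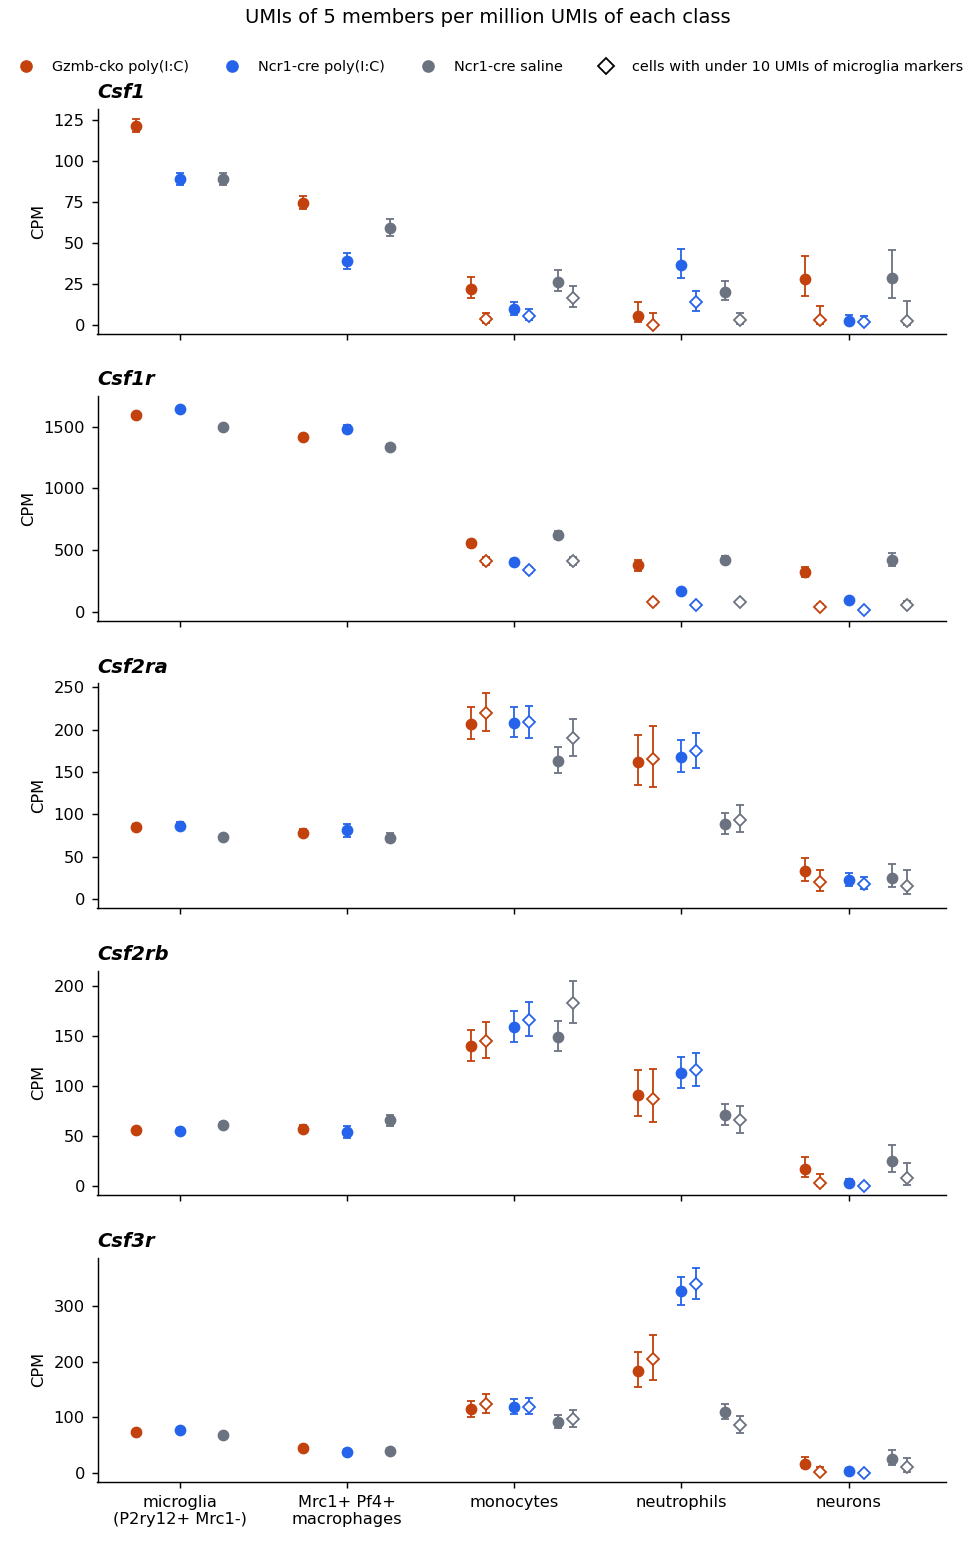
Level of 5 members in CPM in the 5 gates for the libraries Gzmb-cko poly(I:C), Ncr1-cre poly(I:C) and Ncr1-cre saline, with 95% exact Poisson intervals and 1 library per group. Filled circles are all gated cells, and open diamonds are cells with under 10 UMIs of microglia markers. In the filled circles Csf1r lies between 1337 and 1646 CPM in microglia and Mrc1+ Pf4+ macrophages and between 99.6 and 621 CPM in the other gates.

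Il34, the second ligand of CSF1R, was nearly absent from the tables. All kept cells together held 3, 2 and 1 UMIs in the Gzmb-cko poly(I:C), Ncr1-cre poly(I:C) and saline libraries. Microglia held 0 in each library, which allows at most 0.0870, 0.120 and 0.102 CPM by a limit of 3 counts. Gated neurons, the cell type known as its main source in the adult brain, held 0, 1 and 0 UMIs in 114, 313 and 108 cells. At this depth, with few neurons in a CD11b+ sort, Il34 in neurons was not detectable rather than shown to be absent. The neurons without Il34 UMIs allow up to 3.67 CPM in the Gzmb-cko library and 5.04 CPM in saline. No ratio was formed. Ptprz1, a further receptor reported for IL-34, stood at 168, 171 and 104 CPM in the gated neurons. The ligands of the other receptors were also rare among the kept cells: Csf2, which encodes GM-CSF, had 3, 1 and 1 UMIs, Csf3, which encodes G-CSF, had 3, 1 and 0, and Il3 had 0 in every library.

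Csf1r, the receptor of both ligands, was detected in nearly every microglial cell. The gene (ENSMUSG00000024621) spans chr18:61100598-61132149 of GRCm38 on the plus strand, and Hmgxb3 overlaps it on the other strand. The sources used here do not say whether strand was used in counting, so their reads may not have been told apart. Its level was 1593 CPM (1580 to 1607) in Gzmb-cko poly(I:C), 1646 CPM (1630 to 1662) in Ncr1-cre poly(I:C) and 1494 CPM (1480 to 1508) in saline, from 54953, 41242 and 44078 UMIs. A Csf1r UMI was found in 96.2%, 93.7% and 98.1% of microglia, and in 91.9%, 91.2% and 90.8% at 2000 UMIs per cell. The ratios were close to 1: 0.968 (0.956 to 0.9804) for Gzmb-cko poly(I:C) over Ncr1-cre poly(I:C), which was 1.03 under TMM scaling, and 1.10 (1.09 to 1.12) for Ncr1-cre poly(I:C) over saline, which was 0.989 under TMM scaling. The direction of these small differences thus depended on the scaling. For comparison, the median log2 ratio of all tested genes in microglia was -0.02 in the first comparison and 0.16 in the second. In microglia 0 of 5 measured members passed 1.5-fold in either comparison. Of 5975 tested genes 0.268% passed higher and 1.39% lower (1.66% in either direction) in the first, and of 5965 genes 3.5% passed higher and 1.59% lower (5.1% in either direction) in the second.

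Within microglia the Csf1r level varied by state. It was 996, 1006 and 1053 CPM in Spp1-high cells (Gzmb-cko poly(I:C), Ncr1-cre poly(I:C), saline), against 1751, 1798 and 1654 CPM in cells of none of the 4 states. Chemokine-high cells held 1343, 1479 and 1253 CPM, cycling cells 1411, 1363 and 1316 CPM, and interferon-response cells 1302, 1195 and 1086 CPM. In each library the Spp1-high cells, rich in the ligand, had the lowest level of the receptor among these 5 groups.

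In Mrc1+ Pf4+ macrophages Csf1r stood slightly lower than in microglia, at 1416, 1479 and 1337 CPM. The ratio of Gzmb-cko poly(I:C) over Ncr1-cre poly(I:C) was 0.957 (0.934 to 0.981), or 1.04 under TMM scaling, and that of Ncr1-cre poly(I:C) over saline was 1.11 (1.08 to 1.14), or 0.966 under TMM scaling. Cells with P2ry12 held 1460, 1602 and 1413 CPM, and cells without it 1106, 1010 and 1008 CPM.

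Monocytes held less Csf1r than either macrophage gate. The level was 555 CPM (525 to 586) in Gzmb-cko poly(I:C), 406 CPM (382 to 432) in Ncr1-cre poly(I:C) and 621 CPM (591 to 652) in saline. The Ncr1-cre poly(I:C) library was the lowest of the 3, with ratios of 1.37 (1.26 to 1.49) for Gzmb-cko poly(I:C) over Ncr1-cre poly(I:C) and 0.654 (0.604 to 0.708) for Ncr1-cre poly(I:C) over saline. The second ratio put 1 of 4 measured members, Csf1r, past 1.5-fold in the lower direction, where 4.1% of 5412 genes were. In the first comparison 0 of 4 passed in either direction, where 2.73% of 5355 genes did so higher and 2.84% lower (5.56% in all). The sum of microglia markers followed the same order of libraries. In monocytes with under 10 UMIs of them, Csf1r stood at 411, 340.5 and 409 CPM, the ratios were 1.21 (1.09 to 1.34) and 0.833 (0.750 to 0.924), and the call ended.

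Csf1r in the neutrophil and neuron gates, cells not known for this receptor, followed the same order of libraries. Neutrophils held 377, 170 and 424 CPM of Csf1r, and 77.7, 55.0 and 79.6 CPM with under 10 UMIs of microglia markers. Neurons held 320, 99.6 and 423 CPM, and 44.2, 17.9 and 60.7 CPM with under 10. Most of the Csf1r in both gates was in cells with 10 or more UMIs of microglia markers. These were 18, 26 and 83 of the 114, 424 and 298 neutrophils. In neurons they were 13, 19 and 24 of 114, 313 and 108 cells. In neutrophils the ratio of Gzmb-cko poly(I:C) over Ncr1-cre poly(I:C) was 2.22 (1.89 to 2.62) over all and 1.41 (0.949 to 2.07) without those cells, and that of Ncr1-cre poly(I:C) over saline was 0.3999 (0.352 to 0.453) and 0.691 (0.520 to 0.916). In neurons the first ratio was 3.21 (2.63 to 3.92) over all and 2.47 (1.40 to 4.34) without them, and the second was 0.235 (0.193 to 0.287) and 0.2955 (0.164 to 0.537). The neuron values without those cells rest on 27, 28 and 23 UMIs. In neurons 1 of 6 members, Csf1r, had enough counts to be measured. It was past 1.5-fold in both comparisons, higher where 6.44% of 4070 genes were and lower where 7.68% of 3737 genes were. Across the 5 gates the order of Csf1r levels was microglia, Mrc1+ Pf4+ macrophages and then monocytes in every library, and below them neutrophils and neurons, whose intervals overlapped in Gzmb-cko poly(I:C) and in saline.

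**Figure D3:**
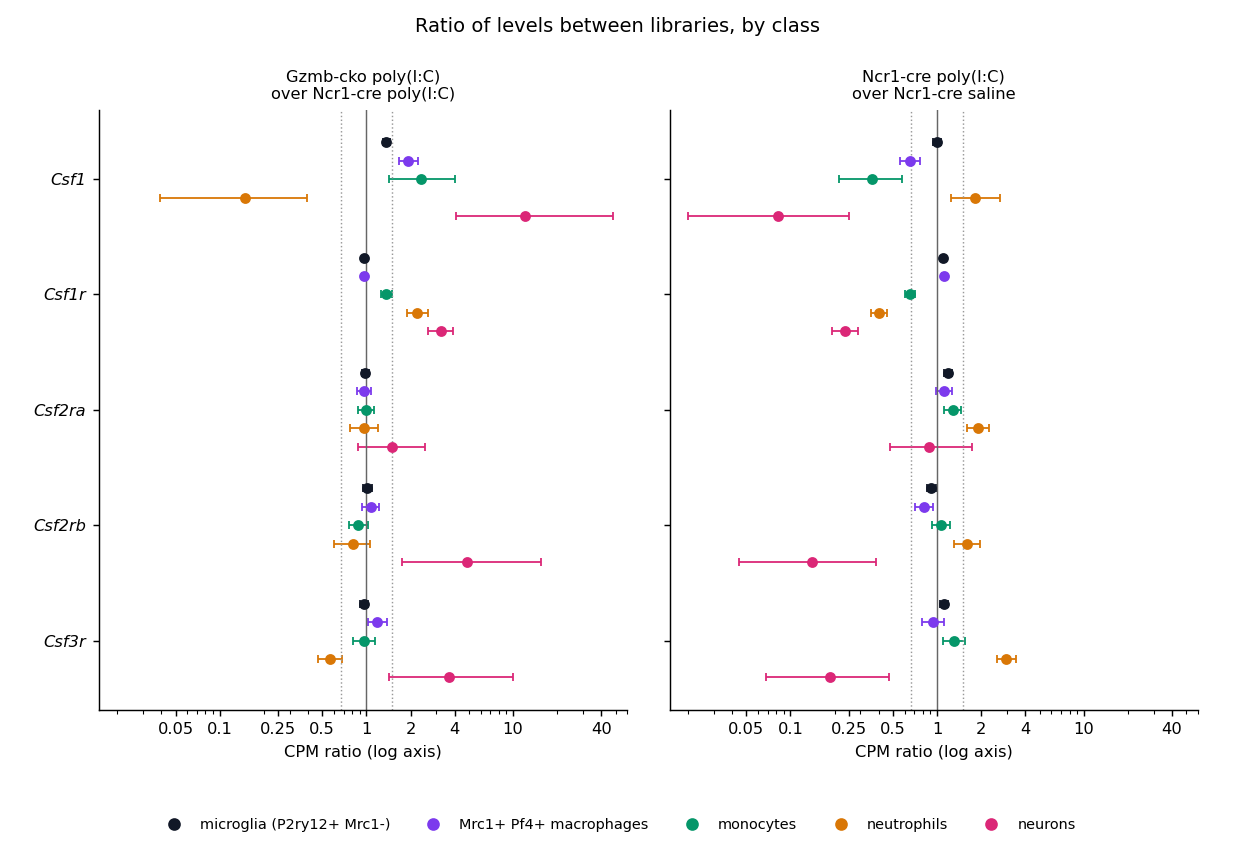
Ratio of the CPM levels of 5 members, on a log axis with 95% exact intervals and dotted lines at 1.5-fold, for Gzmb-cko poly(I:C) over Ncr1-cre poly(I:C) and for Ncr1-cre poly(I:C) over Ncr1-cre saline, in each gate, with 1 library per group. Ratios of members with few UMIs, as in neurons, have wide intervals. In microglia all ratios lie between 0.911 and 1.37, those of Csf1r and Csf3r (both comparisons) and of Csf2ra (the first) cross 1 under TMM scaling, and the widest departures are in neutrophils and neurons.

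Csf2ra, the ligand-binding chain of the GM-CSF receptor, was highest in monocytes. It stood there at 207 CPM (189 to 226), 208 CPM (191 to 227) and 163 CPM (148 to 180) in the Gzmb-cko poly(I:C), Ncr1-cre poly(I:C) and saline libraries. The ratio of Gzmb-cko poly(I:C) over Ncr1-cre poly(I:C) was 0.993 (0.875 to 1.13), or 1.02 under TMM scaling, and Ncr1-cre poly(I:C) over saline was 1.27 (1.12 to 1.45), or 1.10 (0.951 to 1.27) in monocytes with under 10 UMIs of microglia markers. In neutrophils the level was 162, 168 and 88.7 CPM. The saline library was again the lowest, with a ratio of Ncr1-cre poly(I:C) over saline of 1.895 (1.59 to 2.26), and of 1.86 (1.51 to 2.29) without marker-bearing cells. Microglia held 85.3, 86.8 and 72.8 CPM. Their ratio of Gzmb-cko poly(I:C) over Ncr1-cre poly(I:C) was 0.983 (0.9297 to 1.04), or 1.05 under TMM scaling, and that of Ncr1-cre poly(I:C) over saline was 1.19 (1.12 to 1.27), or 1.07 under TMM scaling. Mrc1+ Pf4+ macrophages held 78.1, 81.0 and 72.5 CPM, and their intervals overlapped those of microglia in the Ncr1-cre poly(I:C) and saline libraries. Neurons held 33.1, 22.3 and 25.2 CPM, and 19.6, 17.9 and 15.8 CPM with under 10 UMIs of microglia markers.

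Csf2rb, the common beta chain, was also highest in monocytes among the 5 gates. It stood there at 140.5 CPM (126 to 157), 159 CPM (144 to 175) and 149 CPM (135 to 165) in the Gzmb-cko poly(I:C), Ncr1-cre poly(I:C) and saline libraries, with overlapping intervals. Monocytes with under 10 UMIs of microglia markers held 145.5, 166 and 183 CPM. Neutrophils held 91.2, 113 and 71.0 CPM. Ncr1-cre poly(I:C) over saline was 1.59 (1.30 to 1.96) there, and Gzmb-cko poly(I:C) over Ncr1-cre poly(I:C) was 0.807 (0.604 to 1.07). Microglia held 56.1, 55.5 and 60.9 CPM, a ratio of 1.01 (0.944 to 1.09) between the poly(I:C) libraries and 0.911 (0.849 to 0.978) for Ncr1-cre poly(I:C) over saline. Mrc1+ Pf4+ macrophages held 57.6, 54.0 and 65.85 CPM, and their intervals overlapped those of microglia in all 3 libraries. In neurons with under 10 UMIs of microglia markers Csf2rb had 2, 1 and 3 UMIs. Csf2rb2, the near-identical beta chain that in the mouse serves IL-3 alone, stood at 13.8, 12.7 and 11.8 CPM in microglia. Of 4811 windows of 90 bases along the Csf2rb transcript, 394 (8.19%) also occur in Csf2rb2, but 0 of 411 in the last 500 bases, where 3' reads mostly fall.

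Over all gated cells, Csf3r, the G-CSF receptor, was highest in neutrophils and differed between libraries there. Its level was 184 CPM (154 to 218; 135 UMIs) in Gzmb-cko poly(I:C), 326 CPM (301 to 352; 628 UMIs) in Ncr1-cre poly(I:C) and 110 CPM (97.0 to 124; 266 UMIs) in saline. The Ncr1-cre poly(I:C) library was the highest and the saline library the lowest, without overlap. The ratio of Gzmb-cko poly(I:C) over Ncr1-cre poly(I:C) was 0.564 (0.465 to 0.681), and that of Ncr1-cre poly(I:C) over saline was 2.97 (2.57 to 3.44). A Csf3r UMI was found in 56.1%, 63.9% and 44.3% of neutrophils, and in 30.6%, 39.7% and 21.5% at 2000 UMIs per cell. Among 4 measured members in neutrophils, Gzmb-cko poly(I:C) over Ncr1-cre poly(I:C) was past 1.5-fold higher for 1, Csf1r, where 13.6% of 2634 genes were, and lower for 1, Csf3r, where 8.73% were. In Ncr1-cre poly(I:C) over saline, 4 of 5 (Csf1, Csf2ra, Csf2rb and Csf3r) were past it higher, where 28.0% of 3836 genes were, and 1 of 5 (Csf1r) lower, where 19.5% were. Both Csf1r calls ended in neutrophils with under 10 UMIs of microglia markers, as given above. The Csf1 call, from 1.82, ended with cells of several gates kept (1.44), per-cell means (1.49) or Scrublet (1.48). The Csf2rb call, from 1.59, ended with gate markers at 2 UMIs (1.44), with cells of several gates kept (1.32), at an equal lower limit of UMIs (1.32) and with 1000 genes and 5% mitochondrial UMIs (1.22).

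The neutrophil gate appeared mixed in maturity. It also held the 18, 26 and 83 cells with 10 or more UMIs of microglia markers (Gzmb-cko poly(I:C), Ncr1-cre poly(I:C), saline). Camp and Ngp, genes of the secondary granules of immature neutrophils, split the gate: cells with under 20 UMIs of both together numbered 43 (37.7%), 236 (55.7%) and 80 (26.9%) in the Gzmb-cko poly(I:C), Ncr1-cre poly(I:C) and saline libraries. In these cells Csf3r stood at 437, 635 and 224 CPM, and Cxcr2, a chemokine receptor of mature neutrophils, at 582, 759.5 and 183 CPM. In cells with 20 or more UMIs of Camp plus Ngp, Csf3r stood at 89.65, 100.4 and 59.9 CPM. Csf3r was thus higher in the cells low in Camp and Ngp in every library. These values include the cells with microglia markers, so a low count of Camp and Ngp is not a mark of maturity alone.

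The low Camp and Ngp cells differed in depth as well. Their median depth was 3312, 2658 and 7352 UMIs in the Gzmb-cko poly(I:C), Ncr1-cre poly(I:C) and saline libraries. When only cells with at least 3133 UMIs, the lower limit in the saline library, were kept, they numbered 25, 83 and 80 and made up 27.2%, 31.8% and 26.85% of neutrophils, so the difference in their share between libraries was mostly gone. Csf3r in them stood at 305 CPM (225 to 405), 290 CPM (244 to 343) and 224 CPM (191 to 261). The intervals of the 3 libraries then overlapped. Over all neutrophils at that limit the ratio of Gzmb-cko poly(I:C) over Ncr1-cre poly(I:C) was 0.883, and that of Ncr1-cre poly(I:C) over saline was 1.44. Both calls ended under the equal limit of depth. In neutrophils with at least 1000 genes and at most 5% mitochondrial UMIs the ratios were 0.984 and 1.79, so the second call held. In neutrophils with under 10 UMIs of microglia markers they were 0.603 (0.485 to 0.743) and 3.92, and both calls held.

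**Figure D4:**
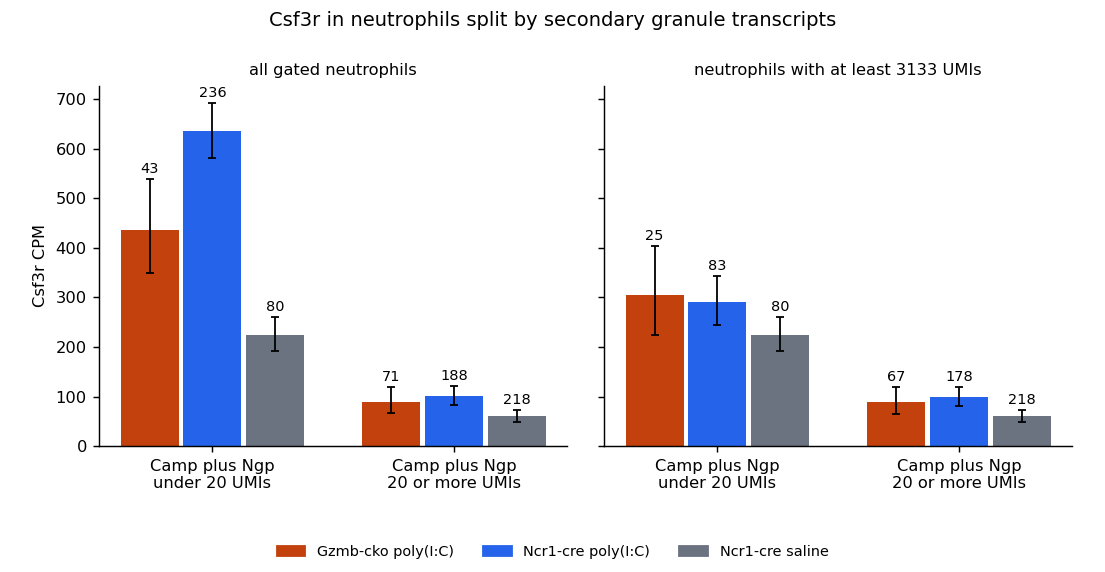
Csf3r level in CPM with 95% exact Poisson intervals in neutrophils split by Camp plus Ngp, for the libraries Gzmb-cko poly(I:C), Ncr1-cre poly(I:C) and Ncr1-cre saline, for all gated cells and for cells with at least 3133 UMIs (cell numbers above the bars). In cells low in Camp and Ngp the levels are 437, 635 and 224 CPM over all cells and 305, 290 and 224 CPM at the equal lower limit of depth.

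Over all gated cells Csf3r was lower outside neutrophils. Neurons held 14, 8 and 15 UMIs (17.1, 4.69 and 25.2 CPM in Gzmb-cko poly(I:C), Ncr1-cre poly(I:C) and saline), of which 2, 1 and 4 were in neurons with under 10 UMIs of microglia markers. Monocytes held 115 CPM (101 to 130), 119 CPM (106 to 134) and 91.75 CPM (80.4 to 104), and in saline their interval overlapped that of neutrophils. With under 10 UMIs of microglia markers, monocytes held 124, 119.6 and 97.2 CPM. In saline this was above the level of neutrophils with under 10. Ncr1-cre poly(I:C) over saline was 1.30 (1.09 to 1.55) over all monocytes, and 1.23 (1.01 to 1.505) in those with under 10. Microglia held 74.4, 77.0 and 69.2 CPM, a ratio of 0.967 between the poly(I:C) libraries, or 1.03 under TMM scaling, and of 1.11 for Ncr1-cre poly(I:C) over saline, or 0.999 under TMM scaling. Csf3r was detected in 35.0%, 33.6% and 30.7% of microglia, against 1.98%, 0.340% and 3.57% of neurons with under 10 UMIs of microglia markers, and at 2000 UMIs per cell in 14.0%, 15.5% and 13.5% of microglia against 0%, 0% and 2.38% of those neurons. Cycling microglia held 54.4, 54.9 and 53.0 CPM, lower than the 82.2, 84.25 and 79.2 CPM of microglia in none of the 4 states. Mrc1+ Pf4+ macrophages held 45.1, 37.9 and 40.25 CPM.

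The pathway downstream of these receptors was read in microglia from 3 lists. CSF1R and the cytokine receptors signal through Src-family kinases, PI3-kinase, the Ras-ERK cascade and JAK-STAT factors, and are curbed by phosphatases and SOCS proteins. Of 26 adaptors and kinases, 19 had enough counts. In Gzmb-cko poly(I:C) over Ncr1-cre poly(I:C), 5 were above a ratio of 1 and 14 below, 0 passed 1.5-fold, and the median log2 ratio was -0.15 (all tested genes, -0.02; under TMM scaling 6 above, 13 below and -0.06). The largest differences were in Pik3r1, the regulatory subunit of PI3-kinase (104 against 141 CPM, ratio 0.740), Syk, a tyrosine kinase (61.5 against 78.6 CPM, 0.783), Sos1, a Ras exchange factor (16.1 against 20.03 CPM, 0.802) and Plcg2, a phospholipase (56.5 against 70.3 CPM, 0.803). In Ncr1-cre poly(I:C) over saline, 18 were above 1 and 1 below, 0 passed 1.5-fold, and the median was 0.18 (all tested genes, 0.16). Under TMM scaling 12 were above 1 and 7 below, with a median of 0.03, so the list did not stand apart from all genes. Pik3r1 was the largest here too (141 against 95.1 CPM, 1.48), and Gab2, an adaptor, stood at 26.6 against 21.5 CPM (1.24).

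Of 19 negative regulators and feedback genes, 10 had enough counts. In Gzmb-cko poly(I:C) over Ncr1-cre poly(I:C), 1 was above 1 and 9 below, 0 passed 1.5-fold, and the median log2 ratio was -0.18 (under TMM scaling 3 above, 7 below and -0.09). Socs3, a suppressor of cytokine signalling, stood at 45.8 against 59.2 CPM (0.775), Dusp6, an ERK phosphatase, at 163 against 204 CPM (0.798), Spred1, an inhibitor of Ras signalling, at 56.2 against 67.6 CPM (0.8302) and Dusp1, a MAP kinase phosphatase, at 148 against 178 CPM (0.834). In Ncr1-cre poly(I:C) over saline, 10 were above 1, with a median of 0.37 (all tested genes, 0.16). Under TMM scaling 9 were above 1 and 1 below, with a median of 0.22. By UMI totals 3 passed 1.5-fold in the higher direction, where 3.5% of genes did. The 3 were Socs3 (59.2 against 30.0 CPM, 1.97), Dusp6 (204 against 122 CPM, 1.67) and Dusp1 (178 against 112 CPM, 1.59), and under TMM scaling Socs3 alone passed, at 1.77.

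Of 11 lineage transcription factors, 8 had enough counts in microglia. In Gzmb-cko poly(I:C) over Ncr1-cre poly(I:C), 2 were above 1 and 6 below, 0 passed 1.5-fold, and the median log2 ratio was -0.07, or 0.02 with 5 above and 3 below under TMM scaling. Cebpb and Cebpa, C/EBP factors of myeloid cells, stood at 197 against 236.5 CPM (0.832) and 67.8 against 78.3 CPM (0.866). In Ncr1-cre poly(I:C) over saline, 7 were above 1 and 1 below, with a median of 0.24 (all tested genes, 0.16). Under TMM scaling 6 were above 1 and 2 below, with a median of 0.09. By UMI totals 2 passed 1.5-fold in the higher direction, where 3.5% of 5965 genes did. These were Cebpa (78.3 against 44.3 CPM, 1.77) and Cebpb (236.5 against 153 CPM, 1.55), of which Cebpa alone passed under TMM scaling, at 1.59. Spi1, which encodes PU.1, stood at 428 against 359.5 CPM (1.19). Spi1 was higher in monocytes (626, 607 and 525 CPM in Gzmb-cko poly(I:C), Ncr1-cre poly(I:C) and saline) than in microglia (422, 428 and 359.5 CPM). Cebpe, a factor of granulocytes, was high in neutrophils (538, 404 and 351 CPM) and nearly absent in microglia (0.232, 0.439 and 0.881 CPM).

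**Figure D5:**
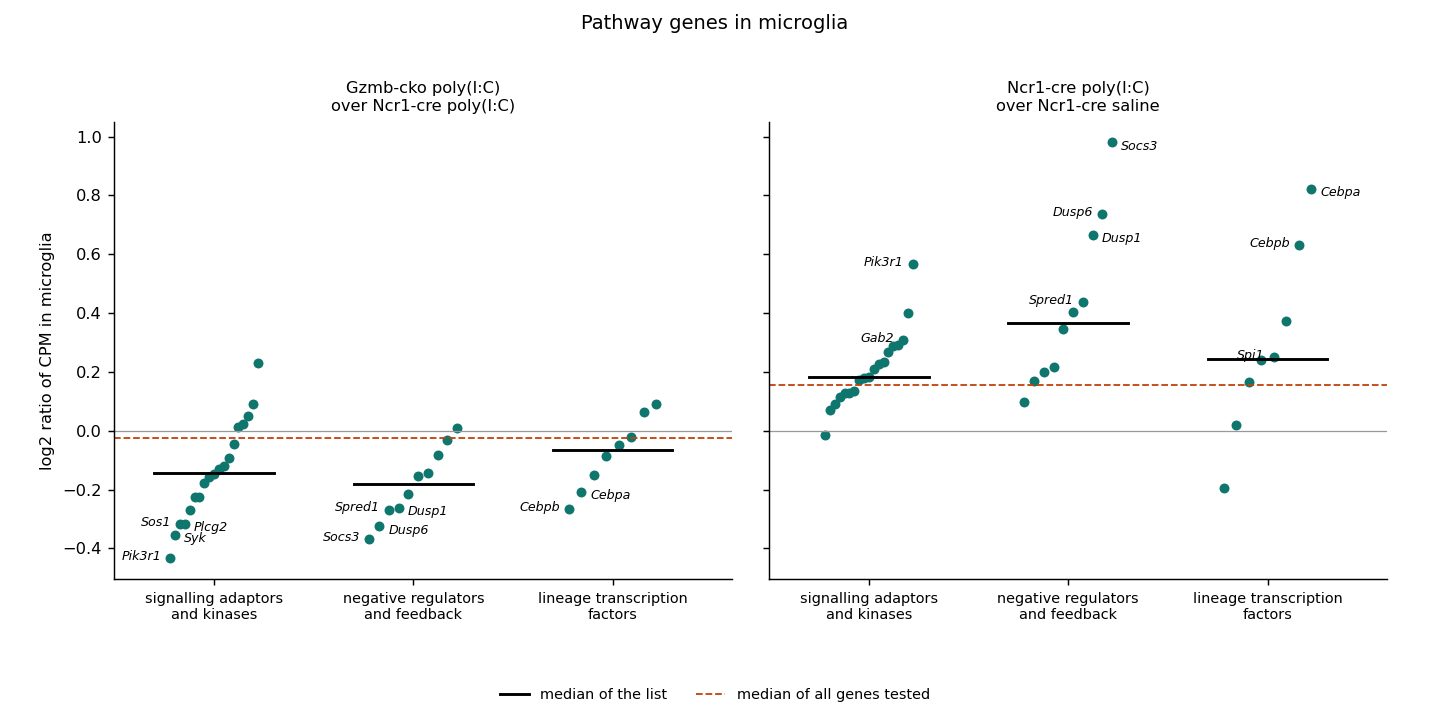
Log2 ratio in microglia of the genes of 3 lists (signalling adaptors and kinases, negative regulators and feedback genes, lineage transcription factors) for Gzmb-cko poly(I:C) over Ncr1-cre poly(I:C) and Ncr1-cre poly(I:C) over Ncr1-cre saline, by UMI totals, with 1 library per group, the list medians as black bars and the median of all tested genes as a dashed line. Most genes lie below 0 in the first comparison and above 0 in the second, and Socs3, Dusp6, Dusp1, Cebpa and Cebpb pass 1.5-fold in the second. Under TMM scaling the transcription factors' median in the first comparison turns to 0.02.

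The genes whose level followed each member most closely were ranked by the Pearson correlation of log2(CPM + 1) over the 15 sums of 5 gates and 3 libraries, among 8497 genes. The sums share libraries and cell types, so the values are a description. For Csf1r the closest were Pdk1 (0.990), Grn (0.990), Adgre1 (0.989), Elk3 (0.988) and Vps18 (0.986). Csf1 was followed less closely, by Ctsd (0.904), Slc37a2 (0.892), Jup (0.887), Liph (0.884) and Creb3l2 (0.881). For Csf2ra they were Coro1a (0.989), Myl12a (0.982), Snx20 (0.979), Ptk2b (0.978) and Ptpre (0.977), and for Csf2rb they were Irak4 (0.984), Lst1 (0.984), Ptprc (0.981), Nfam1 (0.980) and Fes (0.979). For Csf3r they were Pilra (0.982), Gpsm3 (0.977), Pbxip1 (0.976), Tmem50b (0.975) and Treml2 (0.974). Il34, with 1 UMI in the 15 sums, was not ranked.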

How the data were processed

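The deposited tables of the 3 libraries hold UMI counts, unnormalised, of each gene in each barcode. Cell Ranger 5.0.0 wrote them, per the file headers. The submitters' processing notes list version 3.0.1 of Cell Ranger, with STAR and mm10. The sources used here do not give the rule for calling cells. Cells passing the limits of 500 genes and 10% mitochondrial UMIs were gated on the genes named above, with at least 1 UMI unless stated. No doublet caller was used in the main values. Cells meeting several gates were left out, and Scrublet, at an expected rate of 0.8% per 1000 barcodes, was an alternative that marked 626, 281 and 387 cells. Counts were summed per gate and library and divided by the summed UMIs. A gene counted as measured when the higher library held 20 CPM or more and both together 100 UMIs. Named list genes were at most 4 per list and comparison, largest ratio first, and 5 per member for likeness, and some that the rule named are not reported here. The members and lists were chosen with earlier results of these data known. The code was tested on simulated data. Python 3.11.15, numpy 2.4.6, scipy 1.17.1, pandas 2.3.3, scanpy 1.11.5, matplotlib 3.10.9 and, for TMM factors, edgeR 4.0.16 in R 4.3.3 were used. Alternatives were TMM scaling, other filters and gates, per-cell means, Scrublet, and an equal lower limit of UMIs.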

Additional observations from a re-analysis of the deposited data

Results flagged for a closer look

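Several ratios pointed in opposite directions in 2 cell types, each with 1 library per group, and none of these differences was tested. Csf1r in Gzmb-cko poly(I:C) over Ncr1-cre poly(I:C) was 1.37 in monocytes, 2.22 in neutrophils and 3.21 in neurons, against 0.968 in microglia. In Ncr1-cre poly(I:C) over saline it was 0.654 in monocytes, 0.3999 in neutrophils and 0.235 in neurons, against 1.10 in microglia. The summed microglia markers in those 3 gates were lowest in Ncr1-cre poly(I:C), and their part in the result was not tested beyond the values of cells low in them. Csf2rb in Ncr1-cre poly(I:C) over saline was 1.59 in neutrophils, against 0.911 in microglia.

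Other values came from gates that enter no comparison above, where a member stood above its level in saline. Microglia markers were not summed in these gates, so their part in the values was not tested. Csf1r in the choroid plexus gate was 238.5 CPM in Gzmb-cko poly(I:C), 59.6 CPM in Ncr1-cre poly(I:C) and 179 CPM in saline, in 180, 288 and 175 cells. In the radial glia and astrocyte gate, with 32, 53 and 66 cells, Csf1 was 73.5, 21.35 and 27.2 CPM and Csf1r was 684, 121 and 347 CPM. In Gzmb-cko poly(I:C), 1 of the 32 cells held 69.6% of these Csf1 UMIs. The 1 cell with the most Csf1r held 19.2%, 28.7% and 14.1% of the Csf1r UMIs of this gate in the 3 libraries. Csf1 in the erythroid gate, with 50, 117 and 309 cells, was 94.1 CPM in the Gzmb-cko library, 29.0 CPM in Ncr1-cre poly(I:C) and 34.8 CPM in saline. In the Gzmb-cko library, 1 of the 50 erythroid cells held 36.4% of these Csf1 UMIs. Csf2rb in the mast cell and basophil gate was 861 CPM in Ncr1-cre poly(I:C), against 309 CPM in saline, from 25 and 16 UMIs in 5 and 7 cells, and 1 of the 5 cells held 52.0% of those 25 UMIs.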

How the results depend on the processing

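No paired analysis was possible because each group has 1 library. Below, A is Gzmb-cko poly(I:C) over Ncr1-cre poly(I:C), B is Ncr1-cre poly(I:C) over saline, MP are Mrc1+ Pf4+ macrophages, and values are ratios unless called counts. Of the ratios and counts that answer a comparison, 129 alternative values stayed within the counting interval or 1.5 times and 57 moved. Csf1 in monocytes (A, 2.35) turned to 0.935 with per-cell means, 0.618 with Scrublet and 0.598 without cells holding microglia markers. The cause was not tested. Il34 gave no ratio.

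With TMM scaling, Csf1r became 1.03 (A) and 0.989 (B) in microglia, 1.04 and 0.966 in MP, and 0.590 (B) in monocytes. In microglia Csf1 became 1.45 (A) and 0.898 (B), Csf2ra 1.05 and 1.07, and Csf2rb 0.818 (B). With 1000 genes and 5% mitochondrial UMIs, Csf1r became 0.9501 (A) and 1.17 (B) in microglia and 1.15 (B) in MP. Csf1 became 1.21 (A) in microglia and 0.5045 (B) in MP, Csf2rb 0.983 (B) in microglia, and Csf3r 0.984 (A) and 1.79 (B) in neutrophils. With per-cell means, Csf1r became 0.916 (A) in MP, 1.23 (A) and 0.713 (B) in monocytes and 1.05 (B) in microglia. Csf1 became 1.22 (A) and 0.876 (B) in microglia, Csf2rb 0.821 (B) in microglia and 0.9095 (B) in monocytes, and Csf3r 4.36 (B) in neutrophils. With Scrublet, Csf1r in monocytes became 1.23 (A). With gate markers at 2 UMIs, Csf1r in microglia became 0.944 (A). With cells of several gates kept, it became 0.987 (A), and Csf3r in neutrophils 2.26 (B). With an equal lower limit of UMIs, Csf3r in neutrophils became 0.883 (A) and 1.44 (B).

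The next 3 alternatives were chosen after seeing the data. Without cells holding microglia markers, Csf1r in monocytes became 1.21 (A) and 0.833 (B), Csf2ra 1.10 (B) and Csf2rb 0.907 (B), and Csf3r in neutrophils 3.92 (B). Without chemokine-high or Spp1-high cells, Csf1 became 0.979 (A) in microglia, and 1.09 (A) and 0.777 (B) in MP. In MP without P2ry12, Csf1r became 1.095 (A) and 1.002 (B), and Csf1 0.245 (B), the last with fewer than 20 UMIs in Ncr1-cre poly(I:C).

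Counts of genes past 1.5-fold (microglia, MP, monocytes, neutrophils, neurons) were 99, 208, 298, 587 and 720 in A and 304, 605, 832, 1820 and 903 in B. Without the CPM filter and with 20 UMIs they were 1866, 1908, 1318, 2268 and 2720 in A and 1962, 2479, 2183, 4049 and 3292 in B. With cells of several gates kept they were 1179 in neutrophils and 1228 in neurons in A, and 1796 in neurons in B. Under TMM scaling the share of higher among called genes in A was 33.8% in microglia (16.2% by UMI totals), 57.8% in MP (21.6%) and 33.6% in neutrophils (60.8%). In B it was 26.5% in microglia (68.8%), 36.0% in MP (81.5%) and 44.4% in monocytes (73.3%). No member's call changed under TMM scaling. With few UMIs in neurons and neutrophils, differences there are limited by counting, and the lower limit of UMIs differs between the saline library and the others.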

Other observations

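Mast cells and basophils held more Csf2rb than any of the 5 gates, though in 6, 5 and 7 cells of the Gzmb-cko poly(I:C), Ncr1-cre poly(I:C) and saline libraries: 394, 861 and 309 CPM. The same gate held 408, 138 and 502 CPM of Kit, the receptor of stem cell factor. All 3 UMIs of Csf2 in the Gzmb-cko library were in this gate. Il3ra, the IL-3 binding chain, stood at 36.5, 24.3 and 18.6 CPM in monocytes and at 12.2, 9.26 and 10.9 CPM in microglia. Il5ra, the chain that binds IL-5, had 2, 4 and 2 UMIs among all kept cells. Flt3, a receptor of myeloid and dendritic progenitors, stood at 7.83, 13.7 and 7.36 CPM in monocytes.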
